A study of Mus musculus with 60 samples.

Results

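The CC chemokines described here are Ccl2, Ccl3, Ccl4, Ccl6, Ccl7, Ccl8, Ccl9 and Ccl12, which attract monocytes and macrophages. All probe sets carrying 1 of these gene symbols were taken, which gave 10 probe sets for the 8 genes among 18193 genes measured on the array, and the probe set with the highest mean over the 60 arrays stood for each gene. Each array measured 1 male Balb/c mouse, from RNA of its right diaphragmatic lung lobe. SPIO exposed mice inhaled an aerosol of superparamagnetic iron oxide nanoparticles (365 ug of total mass per the labels) for 4 h in nose-only tubes, and CON mice, the sham controls, breathed the carrier gas of helium, oxygen and filtered air without particles for the same time. Lungs of 5 SPIO mice and 5 CON mice were taken at each of 0, 6, 24, 48, 96 and 168 h after the exposure, so that there were 12 groups. Mice due at 96 h were the pool from which animals were also placed in plethysmographs for parts of the exposure, and mice due at 168 h lived in metabolism cages and were fed a liquid diet, so the later times differed from the earlier ones in handling too. Age, exposure day and array batch of the single mice were not given in the sources used here.

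CC chemokines are small secreted proteins that guide leukocytes to a tissue through G protein coupled receptors. Ccl2, Ccl7 and Ccl12 are ligands of Ccr2, the receptor that brings inflammatory monocytes out of the bone marrow and into inflamed tissue. Ccl8 acts in the mouse on Ccr8. Ccl3 and Ccl4 are macrophage inflammatory proteins, and Ccl3 acts on Ccr1. Ccl6 and Ccl9 belong to a rodent group of Ccr1 ligands that myeloid cells make without strong stimulation. In the lung, resident macrophages and epithelial cells that meet particles are among the sources of such chemokines.

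Values are log2 signals made by RMA, which corrects the background, equalizes the distribution of signals between arrays and joins the probes of a probe set into 1 value. A difference of 1 on this scale is a doubling of the signal, and levels of different probe sets are not comparable. Array medians were 5.54 to 5.64. Lung tissue was measured in bulk, so that fewer cells of a type and less RNA per cell cannot be told apart. SPIO mice were set against CON mice of the same time by limma, with p-values adjusted by Benjamini-Hochberg over 18193 genes, and a gene was called higher or lower at an adjusted p under 0.05. A pair of arrays stood apart from the rest. Replicate 1 of the CON mice at 0 h had a log2 signal of 14.02 for the hepatocyte gene Alb (5.27 to 11.35 in the other arrays) and 11.94 for Xist, a transcript of female cells, against 6.02 or less elsewhere. Replicate 3 of the SPIO mice at 24 h had the lowest mean of the Y-linked genes at 5.6 (6.77 to 7.97 elsewhere). Without either array the same number of the 8 chemokines was called at its time.

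The 8 genes lie on chromosome 11 in a pair of clusters (RefSeq annotation of GRCm38.p6). The first holds Ccl2 (chr11:82035577-82037452, probe set 1420380_at), Ccl7 (chr11:82045712-82047525, 1421228_at), Ccl12 (chr11:82101845-82103399, 1419282_at) and Ccl8 (chr11:82115185-82116799, 1419684_at). The second holds Ccl9 (chr11:83572917-83578636, 1417936_at and 1448898_at), Ccl6 (chr11:83587886-83593087, 1417266_at and 1420249_s_at), Ccl3 (chr11:83647843-83649378, 1419561_at) and Ccl4 (chr11:83648624-83664683, 1421578_at). The annotated span of Ccl4 overlaps that of Ccl3. Upstream sequences from RefSeq matched 5 of the 8 genes, and those of Ccl2, Ccl4 and Ccl7 were not analysed here.

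The 250 bases before the annotated start are shown for the genes with the largest calls, Ccl3 and Ccl12 at 0 h and Ccl6 and Ccl9 at 24 h, each 5′ to 3′ on the strand of its gene. Capitals mark the matches to any of 4 motifs, searched on both strands.
Ccl3, chr11:83649379-83649628, minus strand: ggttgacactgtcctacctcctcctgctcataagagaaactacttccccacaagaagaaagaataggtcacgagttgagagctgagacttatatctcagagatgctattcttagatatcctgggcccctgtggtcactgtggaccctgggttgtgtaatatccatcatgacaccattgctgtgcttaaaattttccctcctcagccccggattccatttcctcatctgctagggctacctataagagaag
Ccl12, chr11:82101595-82101844, plus strand: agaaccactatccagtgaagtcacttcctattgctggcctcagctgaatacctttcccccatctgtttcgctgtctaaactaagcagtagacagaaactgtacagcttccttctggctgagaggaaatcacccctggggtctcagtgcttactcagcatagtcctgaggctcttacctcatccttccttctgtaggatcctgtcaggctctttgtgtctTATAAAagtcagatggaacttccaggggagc
Ccl6, chr11:83593088-83593337, minus strand: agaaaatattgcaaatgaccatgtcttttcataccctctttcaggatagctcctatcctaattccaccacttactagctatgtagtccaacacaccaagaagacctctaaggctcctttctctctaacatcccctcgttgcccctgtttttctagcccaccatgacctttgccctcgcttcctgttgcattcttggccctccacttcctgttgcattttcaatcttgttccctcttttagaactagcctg
Ccl9, chr11:83578637-83578886, minus strand: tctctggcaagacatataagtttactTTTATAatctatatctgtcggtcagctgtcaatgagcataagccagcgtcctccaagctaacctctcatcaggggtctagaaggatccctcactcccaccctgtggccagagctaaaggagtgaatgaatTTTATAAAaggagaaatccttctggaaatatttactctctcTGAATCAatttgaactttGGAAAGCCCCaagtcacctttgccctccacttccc
The motifs were the TATA box (TATAAA), the AP-1 site (TGANTCA), the GAS element (TTCNNNGAA) and the kappa B consensus, named here without its letters. TATAAA was present in 3 of the 5 sequences, those of Ccl8, Ccl9 and Ccl12, and in 12.4% of the 32851 upstream sequences of the same length. It lay at positions -31 to -26 of Ccl12, counted back from the start, and at -32 to -27 of Ccl8. In Ccl9 it was found at -92 to -87, overlapping a match on the other strand at -94 to -89, and on the other strand at -224 to -219. Ccl9 was also the 1 of the 5 with an AP-1 match, at -53 to -47 (6.75% of all sequences held one), and the 1 with a kappa B match, at -35 to -26 (7.25% of all). The GAS element was in 0 of the 5 and in 7.02% of all. The windows of Ccl3 and Ccl6 held no match to these letters.

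Ccl3 and Ccl12 were the chemokines higher in SPIO lungs directly after the exposure, Ccl3 and Ccl2 at 6 h, Ccl6 and Ccl9 at 24 h, and Ccl6 at 48 h, when Ccl2 was lower. No member was called at 96 or 168 h, and Ccl7 and Ccl8 were called at no time. At 0 h, 2 of the 8 were higher and 0 lower, where 2.56% of all genes were higher. At 6 h again 2 were higher and 0 lower, where 0.759% of all genes were higher. At 24 h 2 were higher and 0 lower, but 20.3% of all genes were higher, so the share of the chemokines lay near the background. At 48 h 1 was higher (10.7% of all genes) and 1 lower (1.89% of all genes). At 96 and 168 h 0 of the 8 passed, where 0.522% and 0.566% of all genes were higher. Before adjustment, limma gave a p under 0.05 to 4 higher members at 96 h and to 2 at 168 h, with none lower. Of all 18193 genes, 2607 at 96 h and 3048 at 168 h had such a p in either direction.

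In order of time the median log2 difference of the 8 was 0.26, 0.38, 0.16, 0.10, 0.31 and 0.27. Over all genes the median was between 0.015 and 0.09. The number of positive differences among the 8 was 6, 8, 5, 5, 7 and 7 in the same order. These are mostly differences that did not pass the test.

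**Figure D1:**
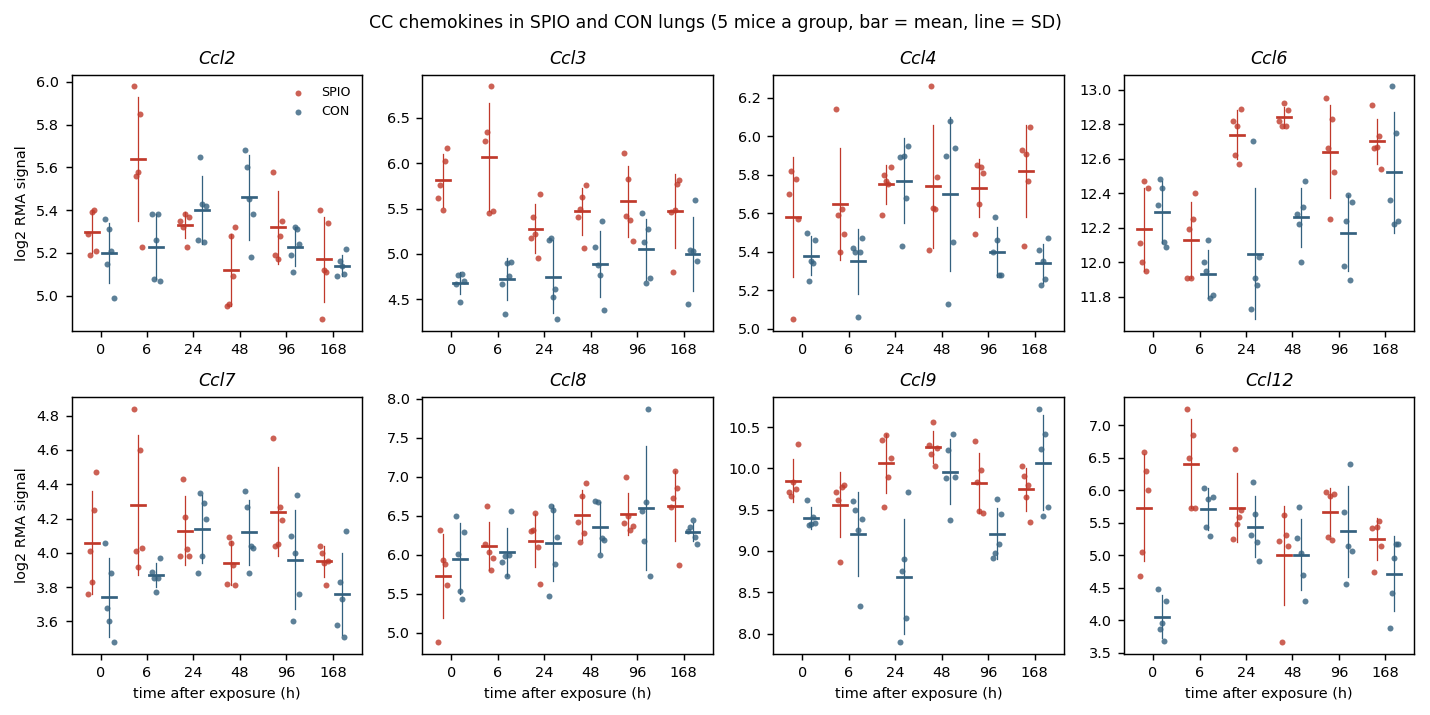
Log2 RMA signal of each mouse (vertical axis, with its own range in each panel) at 6 times after exposure (horizontal axis, h) for the 8 chemokines, SPIO in red left of CON in blue, with the mean as a bar and the SD as a line (n = 5 mice per group). Ccl3 of SPIO mice lay above that of all CON mice at 0 and 6 h, and the CON groups of Ccl12 at 0 h and Ccl9 at 24 h had the lowest mean of their genes.

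Ccl3, or macrophage inflammatory protein 1 alpha, recruits monocytes and other leukocytes. At 0 h its log2 signal was 5.62, 5.76, 5.48, 6.03 and 6.17 in SPIO mice, against 4.67, 4.77, 4.47, 4.78 and 4.70 in CON mice. No SPIO value lay within the range of the CON values. The difference was 1.13 (SE 0.22, 95% confidence interval 0.69 to 1.57, adjusted p = 0.0017), a change of 2.20 times in signal.

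At 6 h Ccl3 was at 6.24, 6.34, 5.45, 6.85 and 5.47 in SPIO mice and at 4.67, 4.34, 4.90, 4.76 and 4.91 in CON mice. The groups again did not overlap, while the SPIO mice spread more widely (SD 0.60) than the CON mice (SD 0.23). The log2 difference was 1.35 (SE 0.22, 0.91 to 1.79, adjusted p = 1.2e-04), or 2.56 times. Ccl3 stayed below a log2 signal of 6 in all 30 CON arrays, with a highest value of 5.59, so these folds are over dim sham values.

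From 24 h on the mean of Ccl3 was above that of the sham controls at each time without passing the adjusted threshold. At 24 h its mean was 5.28 ± 0.27 in SPIO mice and 4.75 ± 0.40 in CON mice (SD, n = 5 each). The 48 h means were 5.47 ± 0.26 in SPIO mice and 4.89 ± 0.36 in CON mice. Values for 96 h were 5.58 ± 0.39 in SPIO mice and 5.05 ± 0.34 in CON mice, and for 168 h 5.47 ± 0.41 in SPIO mice and 5.00 ± 0.41 in CON mice. The log2 differences at these times were 0.54, 0.58, 0.52 and 0.46 with adjusted p = 0.067, 0.073, 0.24 and 0.27 in limma. The groups overlapped at all 4 of these times. The 24 h difference passed without replicate 1 (0.64, adjusted p = 0.04) or 2 (0.65, adjusted p = 0.032) of the CON mice or replicate 4 of the SPIO mice (0.62, adjusted p = 0.0491), and the 48 h difference without replicate 4 of the CON mice (0.69, adjusted p = 0.032). Those were 3 of 10 such fits at 24 h and 1 of 10 at 48 h, with 0 of 10 at 96 h and at 168 h. The exact permutation test of 5 against 5 mice gave Ccl3 an unadjusted p of 0.048, 0.024, 0.071 and 0.13 from 24 to 168 h. At an unadjusted p under 0.05 Ccl3 was higher at all 6 times, as were 0.126% of all genes (23 genes), a count made after the values were seen. In the order of the 12 group means the 6 SPIO groups of Ccl3 came first (6.07 at 6 h to 5.28 at 24 h) and the 6 CON groups after them (5.05 at 96 h to 4.68 at 0 h). No neighbouring means in that order differed by more than the pooled SD of 0.36.

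Ccl4, or macrophage inflammatory protein 1 beta, is a close relative of Ccl3 and was not called at the early times. Its log2 difference was 0.20 at 0 h (95% interval -0.09 to 0.49) and 0.30 at 6 h (0.01 to 0.59), with adjusted p = 0.48 and 0.39. The largest was at 168 h, when Ccl4 was at 5.93, 5.43, 5.91, 5.77 and 6.05 in SPIO mice and at 5.41, 5.23, 5.35, 5.26 and 5.47 in CON mice. Of the SPIO mice 4 lay above all CON mice and 1 within their range. The difference of 0.47 (SE 0.14, adjusted p = 0.063) missed the threshold. It passed without replicate 5 of the CON mice (0.51, adjusted p = 0.0486) or without replicate 2 of the SPIO mice at 168 h (0.57, adjusted p = 0.02). The probe set of Ccl4 was dim, and fewer than 5 of the 60 arrays reached a log2 signal of 6.

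Ccl12, called monocyte chemoattractant protein 5, is a mouse ligand of Ccr2. At 0 h it was at 4.68, 5.05, 6.59, 6.30 and 6.01 in SPIO mice, against 4.48, 3.87, 3.96, 3.68 and 4.30 in CON mice. The lowest SPIO mouse lay just above the highest CON mouse, and the CON values were dim. The log2 difference was 1.67 (SE 0.34, 95% interval 0.98 to 2.35, adjusted p = 0.0032), a change of 3.18 times, and it was 1.77 (adjusted p = 0.0023) without replicate 1 of the CON mice.

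The sham controls of Ccl12 were themselves low at 0 h. Their mean of 4.06 was the lowest of the 12 groups, and it was 1.19 lower than the mean of the other 5 CON groups (SE 0.26, adjusted p = 0.002; 4.22% of all genes were lower in that contrast). The SPIO mean of 5.73 ± 0.82 at 0 h differed by 0.12 from the other SPIO groups, which were exposed too, and was not called. At 6 h Ccl12 was at 7.25, 6.49, 5.73, 6.85 and 5.73 in SPIO mice and at 6.03, 5.44, 5.87, 5.29 and 5.90 in CON mice. The SPIO mean of 6.41 was the highest of the 12 groups, and it lay 0.94 above the other SPIO groups (SE 0.26, adjusted p = 0.027), a call that was lost without SPIO replicate 1, 2 or 4 of 6 h (0.73 to 0.92). The groups overlapped, and the difference of 0.70 between SPIO and CON mice at 6 h had an adjusted p of 0.4.

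Ccl2, or monocyte chemoattractant protein 1, is the main Ccr2 ligand in monocyte recruitment. At 6 h it was at 5.98, 5.56, 5.58, 5.85 and 5.23 in SPIO mice and at 5.38, 5.08, 5.26, 5.38 and 5.07 in CON mice. Of the SPIO mice 4 lay above all CON mice, and replicate 5 lay within their range. The log2 difference was 0.41 (SE 0.10, 95% interval 0.20 to 0.61, adjusted p = 0.026), or 1.33 times. The call was lost without replicate 1 (0.32, adjusted p = 0.094) or 4 (0.36, adjusted p = 0.12) of the SPIO mice, or without replicate 2 (0.37, adjusted p = 0.11) or 5 (0.37, adjusted p = 0.084) of the CON mice at 6 h.

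At 48 h Ccl2 was at 4.95, 4.96, 5.28, 5.09 and 5.32 in SPIO mice and at 5.68, 5.6, 5.45, 5.18 and 5.38 in CON mice. SPIO values were mostly lower, and 1 CON mouse lay within the SPIO range. Ccl2 was lower in SPIO than in CON mice by 0.34 on the log2 scale (SE 0.10, adjusted p = 0.02). The call was lost without replicate 1 of the SPIO mice (-0.30, adjusted p = 0.068) or without replicate 1 (-0.29, adjusted p = 0.083) or 2 (-0.31, adjusted p = 0.0519) of the CON mice. The CON mean of 5.46 was the second highest of the 12 groups and the SPIO mean of 5.12 the lowest. Against the other groups of their arm they differed by 0.22 (limma, adjusted p = 0.086) and -0.23 (adjusted p = 0.34), and neither was called. The probe set of Ccl2 did not reach a log2 signal of 6 in any of the 60 arrays, its highest value being 5.98.

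Ccl7, or monocyte chemoattractant protein 3, had a dim probe set with group means between 3.74 and 4.28. Its largest difference was 0.42 at 6 h (SE 0.15, adjusted p = 0.17), with 4.84, 4.01, 3.92, 4.60 and 4.03 in SPIO mice and 3.89, 3.85, 3.77, 3.85 and 3.97 in CON mice. Of the SPIO mice, replicates 1 and 4 were highest, and the same 2 mice were highest for Ccl2 and Ccl12 at 6 h. Ccl8 had differences of -0.22, 0.08, 0.02, 0.15, -0.09 and 0.34 from 0 to 168 h, each with an SE of 0.26. Its 95% interval at 6 h ran from -0.45 to 0.60, so these arrays do not exclude a change of Ccl8 within that range. The size of change that a call would need was not computed.

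**Figure D2:**
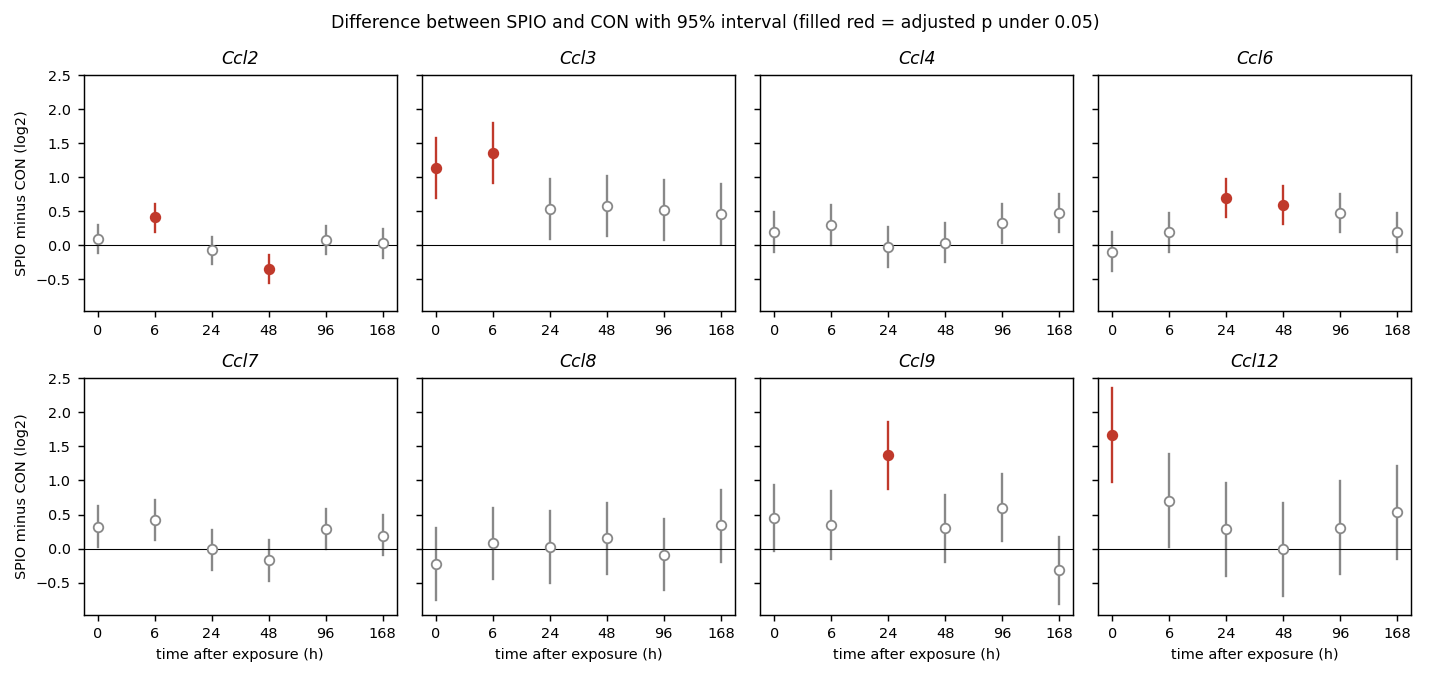
Log2 difference between SPIO and CON mice (vertical axis) with its 95% confidence interval from limma at 6 times after exposure (horizontal axis, h), 1 panel per chemokine, filled red where the adjusted p was under 0.05. Early calls are in Ccl3, Ccl12 and Ccl2, those at 24 and 48 h in Ccl6, Ccl9 and Ccl2, and there are none later.

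Ccl6 and Ccl9 belong to the Ccr1 ligands of the group. At 24 h Ccl6 was at 12.82, 12.62, 12.79, 12.57 and 12.89 in SPIO mice, against 11.73, 12.70, 11.91, 11.87 and 12.03 in CON mice. All but 1 of the CON mice lay well below the SPIO mice, and replicate 2 lay among them. The log2 difference was 0.69 (SE 0.14, 95% interval 0.41 to 0.97, adjusted p = 3.7e-04), or 1.61 times. At 48 h the values were 12.82, 12.79, 12.92, 12.79 and 12.88 in SPIO mice and 12.28, 12.22, 12, 12.32 and 12.47 in CON mice. The groups did not overlap, the SPIO mice had an SD of 0.06, and the difference was 0.59 (SE 0.14, adjusted p = 0.0039).

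The second probe set of Ccl6 gave calls at the same times, with differences of 0.65 at 24 h (adjusted p = 0.003) and 0.66 at 48 h (adjusted p = 0.0055), adjusted over all 45037 probe sets. It was also higher at 96 h, by 0.70 (adjusted p = 0.0032), where the main probe set differed by 0.47 with an adjusted p of 0.075. Both were near 0 at 0 h, at -0.10 for the second and -0.09 for the main one. Within the SPIO arm, Ccl6 at 0 h and at 6 h lay lower than in the other SPIO groups, by 0.42 (adjusted p = 0.022; 1.91% of all genes lower) and 0.49 (adjusted p = 0.003; 2.12% of all genes lower).

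At 24 h Ccl9 was at 10.34, 9.53, 10.40, 9.89 and 10.12 in SPIO mice and at 7.90, 8.76, 8.90, 8.19 and 9.72 in CON mice. Of the CON mice only replicate 5 reached the SPIO range. The log2 difference was 1.37 (SE 0.25, 95% interval 0.87 to 1.86, adjusted p = 8.9e-05), or 2.58 times, and the second probe set gave 1.12 (SE 0.26, adjusted p = 0.0015). This difference went with a low sham group. The CON mean of 8.69 ± 0.70 at 24 h was the lowest of the 12 groups, 0.88 below the other CON groups (SE 0.19, adjusted p = 6.2e-04), and 21.3% of all genes were lower in the same contrast. The SPIO mean of 10.06 ± 0.36 at 24 h was 0.21 above the other SPIO groups, which were exposed too, and was not called.

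Ccl9 was also separated at 0 h, where it was at 9.72, 9.67, 9.84, 9.75 and 10.30 in SPIO mice and at 9.62, 9.32, 9.33, 9.41 and 9.34 in CON mice. All SPIO mice lay above all CON mice, but the difference of 0.45 (SE 0.25) did not pass limma (adjusted p = 0.33). At 168 h the direction was the other way, with 9.75 ± 0.26 in SPIO mice and 10.07 ± 0.57 in CON mice and a difference of -0.32 (adjusted p = 0.54).

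All 5 SPIO mice lay above all 5 CON mice for Ccl3, Ccl9 and Ccl12 at 0 h (3 of 8, and 3.12% of all genes), for Ccl3 at 6 h (2.14% of all genes) and for Ccl6 at 48 h (6.61% of all genes). No member was separated in this way at 24 h (9.96% of all genes), 96 h (2.67%) or 168 h (1.59%), and none was separated downwards at any time. In the two-sided exact permutation test of 5 against 5 mice, each separated case reached the smallest p the design allows, 0.0079. After adjustment over the 48 tests of 8 genes at 6 times the lowest adjusted p was 0.076, so none passed in this exact test. At this smallest p a few separated cases among 48 tests cannot pass, so this outcome is no evidence against them.

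Whether the difference between SPIO and CON mice changed between neighbouring times was tested as an interaction. Of the 8 members, only Ccl2 passed, with a difference at 24 h that was lower by 0.48 than the difference at 6 h (SE 0.14, adjusted p = 0.0472), where 3.52% of all genes changed in either direction. Of the 20 fits that each left out 1 array of those 4 groups, 15 lost this call, with arrays of both arms among them, and the adjusted p was at most 0.14. Ccl9 went the other way between 6 and 24 h, by 1.02 (SE 0.35, adjusted p = 0.082), and passed without CON replicate 4 of 6 h (1.24, adjusted p = 0.021), without CON replicate 5 of 24 h (1.28, adjusted p = 0.025) or with array weights (1.31, adjusted p = 0.011). Ccl6 passed between the same times without CON replicate 2 of 24 h (0.65, adjusted p = 0.025). From 0 to 6 h, 0.885% of all genes passed and none of the 8. From 24 to 48 h, 48 to 96 h and 96 to 168 h the share was 0% each, so no gene on the array passed. The change of Ccl9 from 24 to 48 h was -1.07 (SE 0.35, adjusted p = 0.6).

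Each group was also set against the other 5 groups of its own arm. For a SPIO group the other 5 were exposed too, so these contrasts cannot show whether the exposure raised a level. These contrasts share arrays within an arm. In the SPIO arm, 3 members were higher at 6 h (2.28% of all genes were), namely Ccl12, Ccl2 by 0.40 (SE 0.08, adjusted p = 0.001) and Ccl3 by 0.55 (SE 0.17, adjusted p = 0.0497). No member stood out among the SPIO groups at 24 h (0.126% of all genes in either direction), 48 h (0.0934%), 96 h (0.566%) or 168 h (0.176%). The call of Ccl3 was lost in 18 of the 30 fits that each left out 1 SPIO array, most plainly without replicate 4 of 6 h (0.35, adjusted p = 0.38). That of Ccl6 at 0 h was lost without replicate 1, 2 or 4 of its group.

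In the CON arm, Ccl4 was higher at 24 h by 0.33 (adjusted p = 0.021; 7.41% of all genes were higher), Ccl9 was higher at 48 h by 0.64 (adjusted p = 0.036; 1.3% of all genes), and at 168 h Ccl6 was higher by 0.38 (adjusted p = 0.031) and Ccl9 by 0.77 (adjusted p = 0.012), where 4.63% of all genes were higher. None of the 8 passed in the CON groups at 6 h (7.67% of all genes in either direction) or 96 h (1.07%). Calls kept in all 30 fits that left out 1 array of the arm were 4 of the 11, those of Ccl2 and Ccl6 in SPIO mice at 6 h, Ccl12 in CON mice at 0 h and Ccl9 in CON mice at 24 h. In the CON arm the call of Ccl4 was lost without replicate 1, 3 or 5 of its group, that of Ccl9 at 48 h without 1, 2, 4 or 5, that of Ccl6 at 168 h without 2 or 4 and that of Ccl9 at 168 h without 1, 2 or 4. The calls of Ccl2 and Ccl3 at 6 h went with SPIO groups above the other SPIO groups, though for Ccl3 this was lost in 18 of 30 fits. Those of Ccl12 at 0 h and Ccl9 at 24 h went with CON groups below the other CON groups. Whether exposed or sham mice made these differences was not tested.

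**Figure D3:**
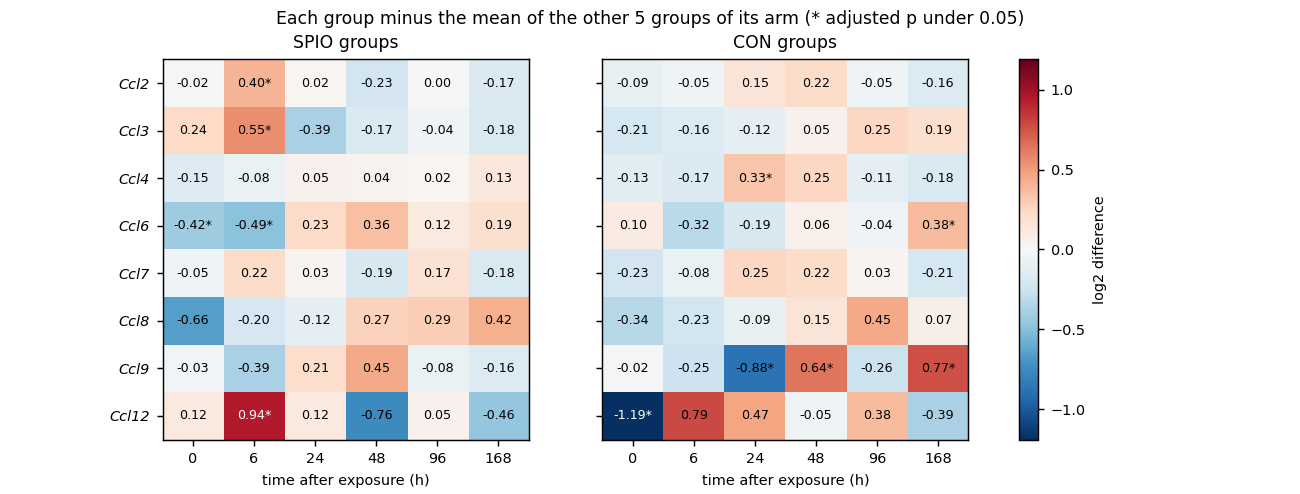
Difference of each group from the mean of the other 5 groups of its arm on the log2 scale (colour and printed value), SPIO groups on the left and CON groups on the right, by chemokine (rows) and time after exposure in h (columns), with an asterisk where the adjusted p was under 0.05. In the SPIO arm 3 members were higher at 6 h, and in the CON arm Ccl12 at 0 h and Ccl9 at 24 h were lower, by 1.19 and 0.88.

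The order of the 12 group means differed between members. Ccl2, Ccl3, Ccl7 and Ccl12 were highest in SPIO mice at 6 h, Ccl6 and Ccl9 in SPIO mice at 48 h, and Ccl4 and Ccl8 in SPIO mice at 168 h. Of the 88 pairs of neighbours in these orders, 5 differed by more than the pooled SD of their gene. They were the gap above the second highest group of Ccl2, 1 gap in Ccl6, the gap of 0.52 above the lowest group of Ccl9, and 2 gaps in Ccl12, where SPIO mice at 6 h led by 0.68. All other neighbours lay within the spread between mice.

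Members also varied together from mouse to mouse. Of 28 pairs over the 60 arrays, 8 had a positive Pearson correlation that passed after adjustment over the pairs (permutation test, 100000 permutations) and none a negative one. Such correlations include differences between groups, so they were repeated on each mouse's deviation from its group mean, with permutation within groups. In that form 7 pairs passed, 5 of them among the 8 above. Ccl2 with Ccl3, Ccl3 with Ccl7 and Ccl4 with Ccl7 no longer passed, and Ccl8 with Ccl12 and Ccl4 with Ccl6 passed only there. Ccl6 and Ccl9 gave r = 0.53 (rho = 0.63, permutation p = 7.6e-04 and 1.0e-05, adjusted p = 0.0071 and 2.8e-04), and r = 0.59 without the 2 most extreme mice for Ccl6. The value 1.0e-05 is the smallest that these permutations can give. The 2 are neighbours on the chromosome and were called together at 24 h.

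A second set of related values joined Ccl12 with Ccl2 (r = 0.50, rho = 0.48, permutation p = 1.2e-04 and 3.3e-04, adjusted p = 0.0034 and 0.0046), Ccl3 (r = 0.45, rho = 0.46, permutation p = 0.0017 and 0.0013, adjusted p = 0.011 and 0.0092) and Ccl7 (r = 0.47, rho = 0.45, permutation p = 0.002 and 0.0027, adjusted p = 0.011 and 0.015). Ccl2 and Ccl7 gave r = 0.49 (rho = 0.44, permutation p = 4.7e-04 and 0.0011, adjusted p = 0.0066 and 0.0092). Without the 2 most extreme mice of the first gene these r were 0.44 for Ccl2 and Ccl12, 0.42 for Ccl3 and Ccl12, 0.43 for Ccl7 and Ccl12, and 0.41 for Ccl2 and Ccl7. Ccl8 and Ccl12 were related more weakly (r = 0.42, adjusted permutation p = 0.018; rho = 0.32, adjusted permutation p = 0.09). Ccl4 went against Ccl6 with r = -0.36 (rho = -0.35, permutation p = 0.0037 and 0.0096, adjusted p = 0.017 and 0.045). Over all 60 arrays the relation of Ccl2 with Ccl3 (r = 0.32, adjusted permutation p = 0.042) rested on the 2 most extreme mice of Ccl2, since r was 0.10 without them.

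**Figure D4:**
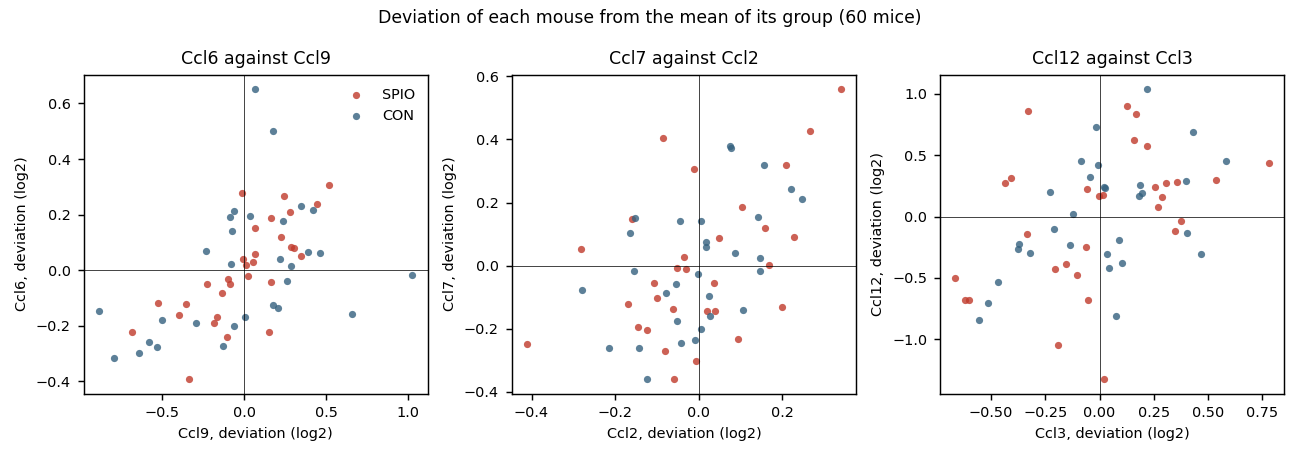
Deviation of each of the 60 mice from the mean of its group on the log2 scale, SPIO in red and CON in blue, for Ccl6 against Ccl9 (r = 0.53), Ccl7 against Ccl2 (r = 0.49) and Ccl12 against Ccl3 (r = 0.45). Points of both arms run from lower left to upper right in each panel.

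Genes with the most similar profile over the 60 arrays differed by member, as a description with no test over 16310 named genes. Ccl6 was closest to Itgb2 (r = 0.83), the common chain of leukocyte integrins, Fcer1g (0.81), a signalling chain of Fc receptors, and Psap (0.79), the precursor of lysosomal saposins. For Ccl9 they were Fcgr2b (0.83), an inhibitory Fc receptor, F13a1 (0.82), a transglutaminase chain made by monocytes, and Msr1 (0.81), a macrophage scavenger receptor. Ccl3 was closest to Noxo1 (0.81), an organizer of NADPH oxidase, with Ube2j1 and Treml4 at 0.71 each, and Ccl12 to Grwd1 (0.78), Znhit6 (0.77) and Bloc1s5 (0.76). The nearest to Ccl8 were Col3a1 (0.63), a fibrillar collagen, Folr2 (0.61), a folate receptor of tissue macrophages, and Col1a2 (0.60). Ccl4 was closest to Crat (0.85), Lce3c (0.84), a gene of the cornified skin envelope, and Tcl1b3 (0.84). Ccl2 and Ccl7 had no partner above 0.57, with Bhlha15 (0.57), Tnfrsf9 (0.53) and Hspa13 (0.51) nearest to Ccl2, and Chil1 (0.56), Ifitm3 (0.54) and Ch25h (0.54) nearest to Ccl7.

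Receptors for these chemokines moved little apart from Ccr2. Of the 7 measured, Ccr2 was higher at 0 h, with 8.79 ± 0.27 in SPIO mice and 7.45 ± 1.06 in CON mice (SD, n = 5 each; log2 difference 1.34, SE 0.39, adjusted p = 0.035). It was also higher at 24 h, with 9.07 ± 0.46 in SPIO mice and 7.66 ± 0.94 in CON mice (1.41, SE 0.39, adjusted p = 0.0056). The other 6 receptors passed at no time, and the median difference of the 7 lay between -0.12 and 0.19.

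Of 16 measured genes that induce these chemokines or belong to the feedback of NF-kB, the transcription factor of inflammatory genes, 3 were higher at 0 h and none lower. They were Relb, an NF-kB subunit, by 0.71 (SE 0.13, adjusted p = 7.5e-04), Tnfaip3, which encodes the inhibitor A20, by 0.58 (SE 0.10, adjusted p = 8.0e-04), and Nfkbiz, a nuclear co-regulator, by 0.50 (SE 0.14, adjusted p = 0.033). At 6 h 4 were higher, led by Csf2, the cytokine GM-CSF, with 7.48 ± 0.29 in SPIO mice and 6.54 ± 0.12 in CON mice (difference 0.94, adjusted p = 5.6e-05), and by Tnfaip3 (0.61) and Nfkb2 (0.44), an NF-kB subunit. At 24 h 3 were higher, Relb (0.45), Nfkb2 (0.34) and Ifng (0.30), the macrophage activating interferon, and this count of 3 of 16 was below the 20.3% of all genes that were higher at 24 h. Csf1, the growth factor of macrophages, was lower in SPIO mice by 0.50, 0.48 and 0.39 at the last 3 times (adjusted p = 0.0018, 0.012 and 0.042). No other gene of this list passed at those times. The share of all genes that were higher was 2.56% at 0 h and 0.759% at 6 h. The list's median difference was 0.23 at 0 h and 0.25 at 6 h, and from -0.02 to 0.11 later, beside 0.015 to 0.09 over all genes.

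Markers of leukocytes moved with some of these results, and their part in them was not tested. Of 12 measured monocyte markers, Ccr2 among them, 4 were higher and 1 lower at 0 h, when Ccl3 and Ccl12 were called. Those with the smallest p were Cx3cr1 (0.67), Treml4 (0.65), which was also near Ccl3 in profile, and Nr4a1, lower by 1.21. Over all genes 2.56% were higher at 0 h. The mean log2 signal over the monocyte list was 8.13 to 8.64 in SPIO mice and 7.91 to 8.45 in CON mice at 0 h. At 6 h none of the 12 passed, and the list's mean was 7.69 to 8.03 in SPIO mice and 7.47 to 8.36 in CON mice, so Ccl3 and Ccl2 were called at 6 h beside no call among the monocyte markers.

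At 24 h, when Ccl6 and Ccl9 were called, 9 of the 12 monocyte markers were higher and none lower, led by Ifitm6 (2.46, adjusted p = 2.6e-04), F13a1 (1.65, adjusted p = 3.7e-04) and Plac8 (1.14, adjusted p = 4.3e-04). The list's mean was 8.23 to 8.88 in SPIO mice and 7.49 to 8.29 in CON mice. These calls went with a low sham group, since its group mean of 7.72 was the lowest of the 12 groups. The SPIO group mean of 8.59 lay between those of CON mice at 48 h (8.53) and at 168 h (8.75). Whether exposed or sham mice made the difference in monocyte markers was not tested. Marker counts at 24 and 48 h stand against 20.3% and 10.7% of all genes higher at these times. Of 11 alveolar macrophage markers, 1 was higher at 24 h (Krt79 by 1.21, adjusted p = 0.0038) and 2 at 48 h (Marco by 0.77 and Itgax by 0.45), and none at other times. Their mean at 48 h was 9.10 to 9.35 in SPIO mice and 8.44 to 9.11 in CON mice. Of 9 interstitial macrophage markers, 2 were higher at 24 h, C1qc (0.48) and Stab1 (0.36), and 1 at 48 h, Cd163 (0.82). The alveolar and interstitial macrophage lists also had their lowest group mean in CON mice at 24 h (8.68 and 8.58). RMA gives no zeros, so the absence of a marker cannot be read from these values.

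Among other cell types, B cell markers were higher in SPIO mice at 0 h (6 of 7, led by Bank1 with 2.15 and Fcmr with 2.11), and 4 of 7 at 24 h. T and NK cell markers were higher for 3 of 9 at 0 h (Lat by 0.61), with 3 of 9 at 24 h (Cd3d by 0.85). The calls of both lists at 0 h went with low sham groups. Their CON means at 0 h, 5.42 for B cells and 6.25 for T and NK cells, were the lowest of the 12 groups. The SPIO means at 0 h were 6.74 (6.22 to 7.30 in the other SPIO groups) and 6.78 (6.80 to 7.28 in the others). Whether exposed or sham mice made the lymphocyte differences was not tested. Of 10 neutrophil markers 1 was higher at 24 h (Il1r2 by 1.46) and 1 at 48 h (Ngp by 1.49). Their differences were positive for 10 of 10 at 24 h (median 0.68, beside 0.09 over all genes) and for 9 of 10 at 48 h (median 0.89, beside 0.043), at the times when Ccl6 was called, and their part in that call was not tested. The counts of called neutrophil and epithelial markers at 24 h were below the 20.3% of all genes that were higher then. At 6, 96 and 168 h none of the B cell, T and NK cell, neutrophil or macrophage markers passed, and Fcgr4 was the monocyte marker that passed at 48 h (0.68) and at 96 h (0.79). Of 8 epithelial markers 1 was higher at 0 h (Slc34a2 by 0.26) and 1 at 24 h (Ager by 0.15), and of 7 markers of heart, liver and fat none passed at any time. The mean of those 7 at 0 h was 6.38 to 11.47 in CON mice and 7.21 to 8.73 in SPIO mice. Their median difference was then -0.83 with 0 of 7 positive, so the lack of calls does not show that such tissue was absent. Marker and receptor results at 0 h were not repeated without replicate 1 of the CON mice. Ager, which marks alveolar type 1 cells, had a log2 signal of 14.61 ± 0.06 in SPIO mice and 14.47 ± 0.07 in CON mice at 24 h (SD, n = 5 each), so the labelled tissue had its defining epithelial transcript.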

How the data were processed

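Total RNA of 60 lung lobes, 5 mice in each of 12 groups, had been hybridised by the authors to Affymetrix mouse genome arrays. The deposited values are log2 signals that the authors computed by RMA (version not given in the sources used here). Because RMA equalizes arrays, a shift shared by most genes is removed, and dim probe sets are compressed towards the background. All 60 columns were matched to mice by their labels. After 64 control probe sets were left out, 34945 of 45037 probe sets had 1 gene symbol, and the brightest of each gene gave 18193 genes.

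SPIO mice were compared with CON mice in R 4.3.3 by limma 3.58.1 in 1 fit over 12 groups (48 residual degrees of freedom), at a Benjamini-Hochberg adjusted p under 0.05 with no fold minimum. Interactions and contrasts within an arm came from the same fit. Exact tests enumerated all divisions of 10 mice. The labels call the mice of a group biological replicates. The number of arrays limits the precision.

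The 8 members, the gene lists and the tests were chosen with earlier results of these data known. Besides the members, the text names of each list the 3 genes with the smallest p among those that passed at a time, and the 3 genes closest to each member, predicted transcripts left out. Results of the 8 members were repeated with each array left out and with time points fitted separately. They were also repeated with every probe set or their mean per gene, and without genes that reached a log2 value of 6 in fewer than 5 arrays. Further runs used centring on the median, a further quantile normalization, array weights or robust trended variances. Others used a replicate block, a fold minimum of 1.5, or the methods' test (unequal variances with Tukey's correction). Scripts were tested on simulated data. Figures were drawn with Python and matplotlib.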

Additional observations from a re-analysis of the deposited data

Results flagged for a closer look

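In 6 of 96 sets of 5 mice (8 genes in 12 groups), 1 mouse lay far from the other 4 by Dixon's test, which chance alone does in about 1 of 20 sets. Ccl9 gave 3 of them. It was 10.3 in replicate 5 of the SPIO mice at 0 h (9.67 to 9.84 in the others), 8.87 in replicate 3 of the SPIO mice at 6 h (9.62 to 9.80 in the others) and 8.33 in replicate 4 of the CON mice at 6 h (9.25 to 9.60 in the others). Ccl8 was 6.99 in replicate 2 of the SPIO mice at 96 h, against 6.32 to 6.49 in the others. Ccl12 was 3.67 in replicate 2 of the SPIO mice at 48 h, against 5.15 to 5.62. Ccl4 was 5.06 in replicate 3 of the CON mice at 6 h, against 5.40 to 5.47.

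The difference of Ccl2 between SPIO and CON mice was not the same at 24 h as at 6 h, by -0.48 on the log2 scale (limma interaction, adjusted p = 0.0472).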

How the results depend on the processing

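No called difference changed direction under any alternative run. The count of called members was 2 at 6 h and became 1 with the filter on dim genes (which leaves out Ccl2), the fold minimum of 1.5, median centring or the 6 h mice fitted alone. At 48 h it was 2 and became 1 with the filter, the fold minimum, the methods' test or the 48 h mice fitted alone. At 24 h it was 2 and became 3 with the filter on dim genes (Ccl3 added, adjusted p = 0.0475). At 96 h (Ccl6) and at 168 h (Ccl4) it was 0 and became 1 with all probe sets, the mean of probe sets or array weights. Leaving out 1 array gave 1 to 2 calls at 6 h, 2 to 3 at 24 h, 1 to 3 at 48 h (3 without replicate 4 of the CON mice, where Ccl3 passed) and 0 to 1 at 168 h. All 10 such fits of a time kept Ccl3 and Ccl12 at 0 h, Ccl3 at 6 h, Ccl6 and Ccl9 at 24 h and Ccl6 at 48 h. The call of Ccl2 for 24 h against 6 h was lost under 5 of the other settings and in 15 of the fits without 1 array. Array weights added the interactions of Ccl9 for 24 h against 6 h (1.31, adjusted p = 0.011), Ccl12 for 6 h against 0 h (-1.42, adjusted p = 0.041) and Ccl2 for 96 h against 48 h (0.47, adjusted p = 0.032). Replicate numbers did not pair the mice: same-numbered SPIO and CON mice had deviations correlated between -0.51 and 0.47, 7 of 30 over 0.1. A replicate block gave 2, 2, 2, 2, 0 and 0 calls from 0 to 168 h. Dim probe sets limit what could be detected. Ccl2, Ccl4 and Ccl7 did not pass the filter, and Ccl3 passed it only through SPIO arrays. Ccl12 reached the filter's level in arrays of both arms, but in too few CON arrays to pass on those alone.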
